A study of Homo sapiens with 56 samples.

Results

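The genes described here encode chaperones and folding enzymes of the endoplasmic reticulum (ER), the compartment where secreted and membrane proteins are folded. They were chosen by name, with earlier results of these data known. In all, 10 were listed: HSPA5, HSP90B1, DNAJB11, SDF2L1, PDIA4, PDIA6, CALR, HYOU1, CRELD2 and MANF. Of these, 9 were found by Ensembl identifier among the 16485 genes of one count table and the 16454 genes of the other, and HYOU1 was not analysed here. All 9 passed the filter on low counts in every cell line. Because earlier results were known, shares of all genes set beside the 9 describe them and do not test the set. The study asked how 2-methylisocitrate (2-MiCit), a bacterial metabolite, acts on colorectal cancer cells. RNA was sequenced in 7 established lines of human colorectal cancer, of which HCT116, SW948, LoVo and DLD1 share a count table and SW1417, SKCO1 and HT29 share the other. In each line, cells labelled wild-type and epithelial received either 10 mM 2-MiCit or its vehicle, water, with 4 libraries per group and 56 in all. How long the cells were treated is not stated in the sources used here. The labels name no genetic change and no further drug in any group. Every group is a single line, and nothing in the labels says that its 4 libraries are separate cultures. The p-values therefore speak only for the spread among these libraries, and that spread may be technical.

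HSPA5 (also called BiP or GRP78) is the HSP70 of the ER and binds unfolded proteins as they enter the lumen. When unfolded proteins build up, HSPA5 leaves the sensors ATF6, IRE1 (gene ERN1) and PERK (gene EIF2AK3), and the unfolded protein response begins. Cleaved ATF6 and the spliced form of XBP1 then raise transcription of the chaperone genes, whereas PERK favours translation of ATF4, which turns on DDIT3 (CHOP) and genes of amino acid supply. ATF6, together with the factor NF-Y, recognises the ER stress response element (ERSE), which is CCAAT, then 9 bases, then CCACG. A shorter form, ERSE-II, is ATTGG, then 1 base, then CCACG.

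The promoters of the 9 genes are shown first because the elements read by that pathway were searched in them. In the RefSeq promoter table (GRCh38.p14, from 250 bases before to 50 bases after each start), all 9 genes were found, with 11 promoters between them. ERSE was read on both strands. It was present in 5 of the 11 promoters (45.5%) and in 27 of all 35116 promoters (0.0769%). ERSE was searched because it is known as an element of ER chaperone genes. The shares therefore describe these promoters and are not a test of enrichment. The 5 genes were HSPA5, HSP90B1, PDIA6, CALR and CRELD2, and HSP90B1 carried it at 2 places, 1 on each strand. ERSE-II was present in 1 of the 9 genes, SDF2L1, and in 19 of all promoters (0.0541%). HYOU1, listed but not found in the counts, also carried ERSE-II, with 2 matches. The short piece CCACG, which is part of both elements, was in 8 of the 9 genes, but also in 38.1% of all promoters. The UPRE core, TGACG followed by TGG, was in none of the 9 genes and in 0.729% of all promoters. A match says that the letters are there, not that a factor binds. Each element is printed with 15 bases on either side, 5′ to 3′ along the strand of the gene, with the element in capitals, in the order of the genes above; for HSP90B1 the forward copy comes first.
HSPA5: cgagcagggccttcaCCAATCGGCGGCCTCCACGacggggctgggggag
HSP90B1: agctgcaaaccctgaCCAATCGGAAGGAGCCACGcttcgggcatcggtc
HSP90B1: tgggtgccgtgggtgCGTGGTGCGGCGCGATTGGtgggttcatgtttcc
SDF2L1: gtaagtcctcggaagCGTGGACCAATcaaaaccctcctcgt
PDIA6: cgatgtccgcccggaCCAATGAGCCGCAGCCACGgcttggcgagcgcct
CALR: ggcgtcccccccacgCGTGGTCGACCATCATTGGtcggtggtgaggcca
CRELD2: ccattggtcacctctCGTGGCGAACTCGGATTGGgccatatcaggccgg

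The windows lie upstream of the RefSeq starts used. That of HSPA5 is chr9:125241376-125241424 on the minus strand, with the element beginning 66 bases before the start. Those of HSP90B1 are chr12:103930201-103930249 and chr12:103930306-103930354 on the plus strand, with elements beginning 194 and 89 bases before the start. The SDF2L1 window is chr22:21642099-21642139 on the plus strand, and its ERSE-II begins 188 bases before the start. The PDIA6 window is chr2:10812838-10812886 on the minus strand and belongs to the second of its promoters, inside the span of the gene. The CALR window is chr19:12938369-12938417 on the plus strand, 225 bases before the start, and the CRELD2 window is chr22:49918539-49918587 on the plus strand, 80 bases before the start. In GENCODE release 29 all 9 are protein-coding genes, and their transcript lengths run from 865 bases (SDF2L1) to 3908 bases (HSPA5).

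Each library of HCT116, DLD1, LoVo or SW948 held 13.8 to 19.4 M counts, and each of HT29, SKCO1 or SW1417 held 29.1 to 45.4 M. No test was made across the 2 tables. The epithelial markers EPCAM, KRT8 and KRT18 were high in all lines, but in HCT116 the intestinal markers KRT20, CDH17 and VIL1 were at or near 0. HCT116 also had CDH1 at 31.8 to 53.9 CPM, against 166 CPM or more in every other line. Some intestinal markers were low elsewhere too. HT29 had CDH17 at 1.75 to 2.23 CPM and CDX2 at 2.08 to 3.64 CPM. KRT20 was at 0.952 to 3.78 CPM in LoVo, and VIL1 at 3.83 to 5.62 CPM in DLD1. Summed endothelial markers were at most 1.93 CPM and summed fibroblast markers at most 22.1 CPM. Summed leukocyte markers ran from 3.99 to 1840 CPM. LYZ, the lysozyme gene, made up most of the highest sums, at 1640 to 1830 CPM in HT29 and 918 to 1140 CPM in SW948. In the first table, some libraries held relatively more short transcripts than others of their line. The slope of log2 level on log2 transcript length was -0.28 in DLD1 control replicate 1 and -0.22 in SW948 2-MiCit replicate 2, against -0.12 to 0.13 in the other 30 libraries of that table and -0.01 to 0.02 in the second table. SDF2L1, MANF and CRELD2 have the shortest transcripts of the 9 genes. In DLD1 and SW948, the medians of the set and the fold changes of several members are given with and without those libraries. Control levels, comparisons between lines and fold changes of genes outside the set are given only with them.

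In untreated cells, levels were compared between genes and lines as counts per transcript length, scaled to the same sum in every library (TPM), and the 2 tables were processed separately. CALR, a calcium-binding lectin chaperone of glycoproteins, averaged from 504 TPM in HT29 to 2075 TPM in DLD1. HSP90B1, the HSP90 of the ER, averaged from 594 TPM in HT29 to 1947 TPM in DLD1. At the other end, CRELD2, a disulfide isomerase-like ER protein, averaged from 31.9 TPM in HT29 to 189.9 TPM in DLD1. The levels of 7 of the 9 genes were highest in DLD1, and 5 were lowest in HT29. The DLD1 means include control replicate 1, rich in short transcripts, and were not computed without it.

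For HSPA5 the order of the control means was DLD1 (1053 TPM), HCT116 (845 TPM), SW948 (457 TPM), SKCO1 (428 TPM), LoVo (399 TPM), HT29 (293 TPM) and SW1417 (269 TPM), and no neighbouring pair of lines had overlapping libraries. SDF2L1, a component of the HSPA5 and DNAJB11 chaperone cycle, differed most between lines, 6.84-fold between DLD1 (248 TPM) and HT29 (36.3 TPM). That DLD1 mean leaned on control replicate 1, at 155.0 CPM against 73.1 to 84.0 CPM in the other control libraries. The 2 highest lines for SDF2L1, DLD1 and HCT116, overlapped, as did LoVo and SW1417. MANF, a small ER protein that binds HSPA5, spanned 6.24-fold and CRELD2 5.96-fold. For MANF too, DLD1 control replicate 1 stood apart, at 246.4 CPM against 160.7 to 174.7 CPM. In CRELD2 it was the highest DLD1 control library, at 191.7 CPM. The disulfide isomerase PDIA6 spanned 2.14-fold, and the HSP40 co-chaperone DNAJB11 2.22-fold, with 4 of its 6 neighbouring pairs overlapping. PDIA4, another disulfide isomerase, had an order of its own. It was highest in SW1417 (835 TPM), where HSPA5 and DNAJB11 were lowest, and lowest in LoVo (273 TPM).

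**Figure D1:**
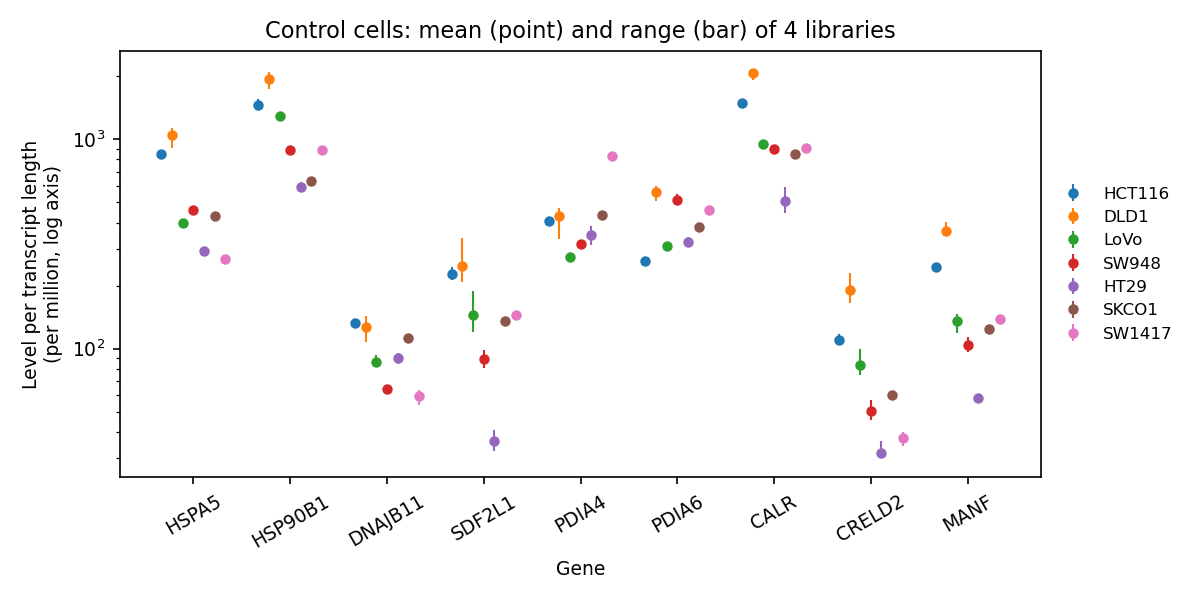
Control levels of the 9 genes per transcript length (TPM, log axis) by line, with the mean of 4 libraries as a point and their range as a bar. DLD1 is highest for 7 genes, and PDIA4 stands at 835 in SW1417, above every other line. The DLD1 points include control replicate 1, a library rich in short transcripts.

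With 2-MiCit, all 9 genes fell in HCT116, and no gene of the set rose in any line. HCT116 had 19.0% of all genes called higher by the same test, SKCO1 8.10%, HT29 4.65%, SW1417 2.94%, LoVo 1.59%, DLD1 0.148% and SW948 0%. The median log2 fold change in HCT116 was -0.63 (a fold of 0.647), against 0.03 over all 13834 genes tested. In DLD1 the median was -0.36, with all 9 below 0 and none called. LoVo followed at -0.26, with 2 genes lower. The medians were 0.09 in SW948, -0.10 in HT29, -0.04 in SKCO1 and -0.08 in SW1417. Without the libraries rich in short transcripts, the median was -0.30 in DLD1 and 0.003 in SW948. Here a call means that edgeR's quasi-likelihood test, adjusted by Benjamini-Hochberg over all genes of the line, gave a p below 0.05. Adjusted p values come from that test unless another is named. The libraries are of bulk RNA, in which fewer cells of a type and less RNA per cell cannot be told apart.

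**Figure D2:**
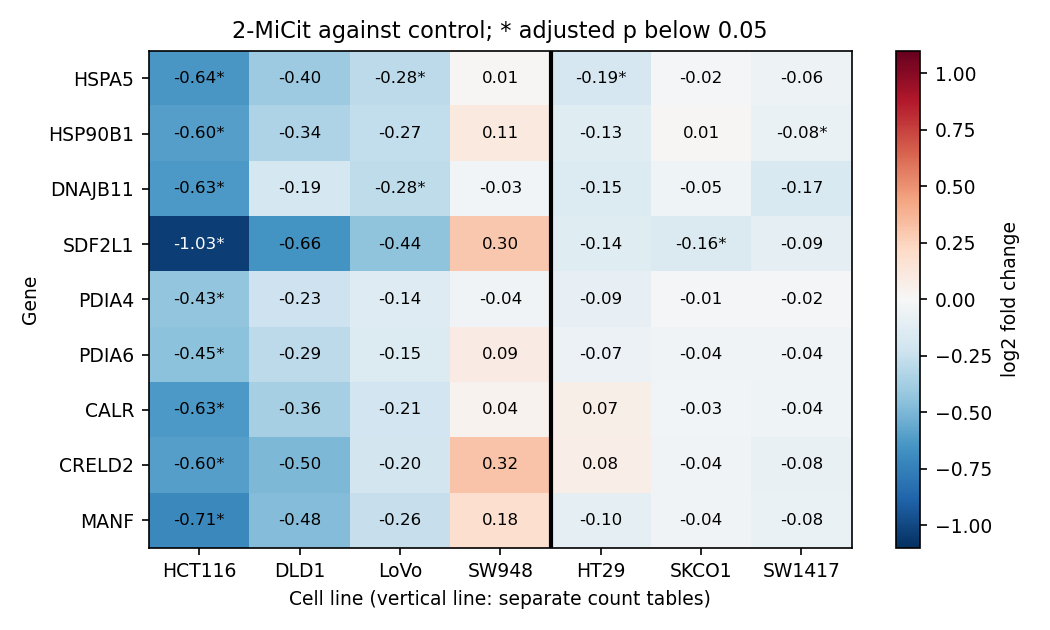
The log2 fold change of each gene (rows) in each line (columns), 2-MiCit over control, with an asterisk where the adjusted p was below 0.05. The HCT116 column runs from -0.43 to -1.03 with 9 asterisks, and the SW948 column holds 2 values below 0 and none called.

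In HCT116, 18.0% of all genes tested were called lower, and 9 of the 9 ER chaperone genes were. In CPM (counts scaled to library size, with TMM factors), HSPA5 stood at 1464, 1469, 1447 and 1443 in the control libraries and at 910.1, 920.8, 1009 and 899.7 with 2-MiCit. The groups were far apart, and replicate 3 was the highest of the treated libraries. Its log2 fold change was -0.64 ± 0.05 (SE, n = 4 per group, adjusted p = 2.11e-05). HSP90B1, which folds a restricted set of clients such as integrins and Toll-like receptors, read 1816, 1811, 1793 and 1879 in control and 1177, 1167, 1282 and 1183 with 2-MiCit. Again the groups did not overlap and treated replicate 3 was the highest, and the log2 fold change was -0.60 ± 0.05 (adjusted p = 2.36e-05).

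The co-chaperones of HSPA5 fell as well. DNAJB11, which delivers substrates to HSPA5, read 148.2, 136.3, 136.9 and 138.2 CPM in control and 92.8, 86.6, 94.6 and 87.9 CPM with 2-MiCit, a log2 fold change of -0.63 ± 0.05 (adjusted p = 2.57e-05). SDF2L1 read 97.7, 83.4, 87.2 and 77.5 CPM in control and 41.8, 38.6, 51.2 and 37.2 CPM with 2-MiCit. Its lowest control library was still above its highest treated one, and its fall, -1.03 ± 0.11 on the log2 scale (adjusted p = 7.87e-05), was the largest of the 9 as a point estimate. In rank it was the 67th most lowered of the 13834 genes. MANF read 134.8, 120.3, 130.4 and 114.7 CPM in control against 81.9, 69.3, 88.2 and 67.1 CPM with 2-MiCit, a log2 fold change of -0.71 ± 0.09 (adjusted p = 0.00031). For these genes too, all treated libraries were below all control libraries.

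The disulfide isomerases, which form and rearrange disulfide bonds, fell with the smallest point estimates of the set. PDIA4 read 517.9, 525.8, 522.4 and 515.0 CPM in control and 373.3, 380.6, 414.9 and 373.4 CPM with 2-MiCit (log2 fold change -0.43 ± 0.05, adjusted p = 0.00012). PDIA6 read 329.6, 306.1, 297.9 and 302.9 CPM in control and 232.6, 217.2, 238.9 and 218.0 CPM with 2-MiCit (-0.45 ± 0.05, adjusted p = 0.000165). In neither gene did a treated library reach the control range. The glycoprotein chaperone CALR went from 1267, 1251, 1280 and 1211 CPM to 808.9, 785.0, 881.5 and 766.1 CPM (-0.63 ± 0.05, adjusted p = 3.23e-05). CRELD2 went from 85.3, 73.6, 76.1 and 70.6 CPM to 54.3, 46.0, 56.8 and 44.0 CPM (-0.60 ± 0.09, adjusted p = 0.000779). All 9 genes were thus without overlap between the groups, as were 17.2% of all genes in that direction.

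Together the 9 genes took 0.560% to 0.564% of all counts in the HCT116 control libraries and 0.383% to 0.419% in the treated ones. Each of the 9 kept its call under all 17 alternatives, with a highest adjusted p of 0.00556 for CRELD2. The share of counts from mitochondrially encoded genes also moved with the group, from 1.63% to 2.72% in control and from 2.68% to 4.06% with 2-MiCit, and its part in the result was not tested.

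**Figure D3:**
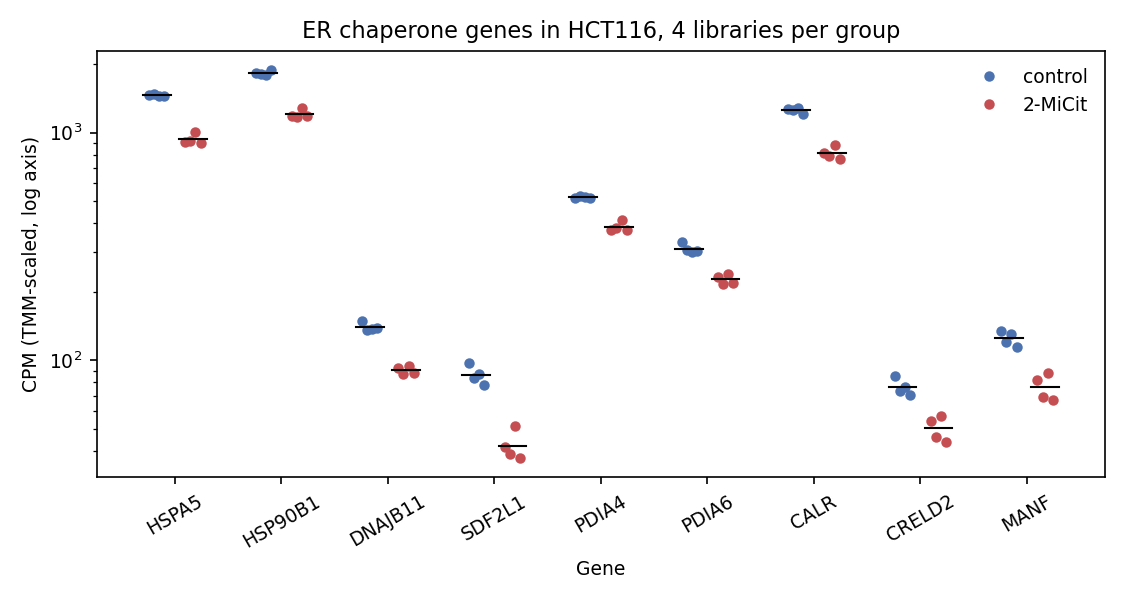
CPM (log axis) of the 9 genes in HCT116, with each of the 4 control and 4 treated libraries as a point and the group mean as a line. For every gene the treated points lie below the control points, and HSPA5 goes from a mean of 1456 to 935.

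In DLD1, edgeR called 0 of the 9 genes, and 0% of all genes lower, although all 9 had an unadjusted p below 0.05 and a fold change below 0. Control HSPA5 read 1880, 1812, 1730 and 1819 CPM, and treated HSPA5 1275, 1389, 1463 and 1362 CPM. The groups did not overlap, and the log2 fold change was -0.40 ± 0.08 with an adjusted p of 0.109. The same separation held for all 9 genes, as it did for 6.10% of all genes tested, although for CRELD2 the lowest control and the highest treated library both rounded to 105.1 CPM. DLD1 had the widest spread of the 7 lines (biological coefficient of variation 0.183, against 0.122 in HCT116). DESeq2 called 5 of the 9 lower, with 1.50% of genes called lower. A single edgeR fit over the 4 lines of the table, which shares the spread between lines, called 9 of 9, with 3.92% of genes called lower.

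The size of the DLD1 change in the short transcripts rested on control replicate 1. In that library SDF2L1 stood at 155.0 CPM, with the other control libraries at 78.6, 73.1 and 84.0 CPM and the treated ones at 54.9, 58.4, 70.3 and 64.4 CPM. CRELD2 was at 191.7 CPM there, against 119.5, 105.1 and 122.9 CPM, and MANF at 246.4 CPM, against 174.7, 160.7 and 167.0 CPM. Without that library the log2 fold change of SDF2L1 went from -0.66 to -0.34, that of CRELD2 from -0.50 to -0.28 and that of MANF from -0.48 to -0.31. HSPA5, with the longest transcript, hardly moved (-0.38) and was called at an adjusted p of 0.0234, the only 1 of the 9, with 0.146% of genes called lower. With the length trend of each library removed, HSPA5 was at -0.46 (adjusted p = 0.0369), SDF2L1 at -0.31, CRELD2 at -0.31 and MANF at -0.22, and HSPA5 was again the only member called, with 0.0886% of all genes called lower.

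In LoVo, 2 of the 9 genes fell, HSPA5 and DNAJB11, with 0.702% of all genes called lower. HSPA5 read 680.9, 673.1, 700.2 and 738.4 CPM in control and 574.2, 549.3, 599.2 and 570.5 CPM with 2-MiCit, a log2 fold change of -0.28 ± 0.06 (adjusted p = 0.0334). DNAJB11 read 92.1, 86.2, 98.5 and 94.8 CPM in control and 75.2, 74.2, 78.7 and 78.4 CPM with 2-MiCit, also -0.28 ± 0.06 (adjusted p = 0.037). Neither gene's groups overlapped, and 6 of the 9 genes were without overlap, as were 6.43% of all genes. The other 7 had log2 fold changes from -0.14 (PDIA4) to -0.44 (SDF2L1). The SDF2L1 value leaned on control replicate 4, at 78.0 CPM against 45.1, 49.4 and 53.8 CPM in the other control libraries, and was -0.24 without it. The LoVo calls were close to the threshold: both were lost without any 1 of 6 of the 8 libraries (adjusted p up to 0.144 for HSPA5 and 0.146 for DNAJB11), and kept only without control replicate 1 or control replicate 4. Without control replicate 1, 5 members were called, with 3.91% of all genes called lower.

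In SW948 none of the 9 genes was called, none had an unadjusted p below 0.05, and DESeq2 called none, with 0% of all genes called lower by edgeR. HSPA5 read 729.5, 718.7, 780.6 and 755.4 CPM in control and 719.5, 838.2, 736.2 and 717.9 CPM with 2-MiCit. The groups overlapped, as they did for all 9 genes (2.71% of all genes had every treated library below control), and the log2 fold change of 0.01 had a 95% interval from -0.16 to 0.19. Several values above 0 in this line shrank without treated replicate 2, the library rich in short transcripts. In it SDF2L1 stood at 61.4 CPM against 28.7, 35.7 and 33.8 CPM in the other treated libraries and 28.3 to 36.0 CPM in control. Without it, SDF2L1 went from 0.30 to 0.02 and CRELD2 from 0.32 to 0.13.

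In the 3 more deeply sequenced lines the log2 fold changes of the set lay between -0.19 and 0.08. In HT29, 1 of the 9 genes fell, with 3.02% of all genes called lower. That gene was HSPA5, at 502.8, 475.0, 504.2 and 488.0 CPM in control and 461.4, 412.5, 431.0 and 427.7 CPM with 2-MiCit. All treated libraries were below all control libraries, by a log2 fold change of -0.19 ± 0.04 (adjusted p = 0.0184). The call was lost without any 1 of 4 libraries (control replicates 1 and 3, treated replicates 3 and 4), with adjusted p up to 0.0773. DNAJB11 was also without overlap, 1 of 2 such genes in HT29 against 7.31% of all genes, at -0.15 ± 0.04 (adjusted p = 0.0523). CALR and CRELD2 had values above 0 (0.07 and 0.08), with groups that overlapped.

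In SKCO1, 1 of the 9 genes was called lower, a share near the 10.8% of all genes called lower. It was SDF2L1, at 51.6, 48.1, 52.2 and 49.5 CPM in control and 42.5, 46.4, 47.0 and 44.9 CPM with 2-MiCit, a log2 fold change of -0.16 ± 0.04 (adjusted p = 0.0108). It was also the 1 gene of the set without overlap, as were 12.5% of all genes. SDF2L1 was not called with the authors' own scaling (adjusted p = 0.062) or in a single fit over the table (adjusted p = 0.11). HSPA5 in SKCO1 had a log2 fold change of -0.02 with a 95% interval from -0.07 to 0.02, so that a fall of the size seen in HCT116 lay outside it.

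In SW1417, 4.05% of all genes were called lower, and 1 of the 9 was: HSP90B1, at 1107, 1109, 1088 and 1082 CPM in control and 1037, 1017, 1044 and 1062 CPM with 2-MiCit. The groups were close but did not overlap (log2 fold change -0.08 ± 0.02, adjusted p = 0.0385). This call was lost under 10 of the 17 alternatives, among them the authors' own scaling (adjusted p = 0.252) and 6 of the 8 fits that leave out a library. DNAJB11, at -0.17 ± 0.05, missed the threshold (adjusted p = 0.0547). All 9 values were below 0 in SW1417, and 4 genes were without overlap, against 7.68% of all genes.

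**Figure D4:**
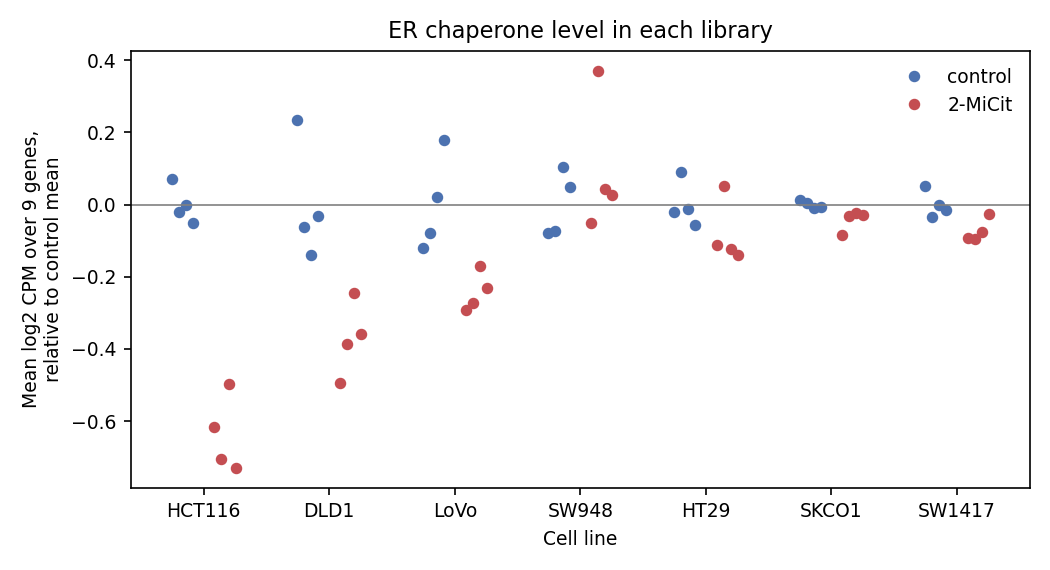
Mean log2 CPM of the 9 genes in each library, relative to the mean of the control libraries of its line. Treated HCT116 libraries lie between -0.50 and -0.73, treated DLD1 libraries between -0.24 and -0.49, and in SW948 treated replicate 2 stands alone above the rest.

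A difference in response between lines was tested as the interaction of treatment and line, in 1 edgeR fit per table. Such a fit shares the spread between lines. In the first table the biological coefficient of variation ran from 0.11 in LoVo to 0.183 in DLD1. In the table of HCT116, DLD1, LoVo and SW948 it was called for 9 of 9 genes, with 18.0% of all genes called. The adjusted p was smallest for HSPA5 (1.13e-05) and DNAJB11 (3.85e-05) and largest for SDF2L1 (0.0139) and CRELD2 (0.0163). With the replicate number as a block it was called for 8 of the 9, and CRELD2 lost its call (adjusted p = 0.0564). The interaction was not refitted without DLD1 control replicate 1 or SW948 treated replicate 2. In the table of HT29, SKCO1 and SW1417 edgeR called it for none of the 9, with 5.49% of all genes called. HSPA5 was the only member there with an unadjusted p below 0.05 (0.00281, adjusted p = 0.0505).

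Pairs of lines were then compared. The response in HCT116 was lower than that in SW948, which did not fall, in all 9 genes, with 9.12% of all genes called in that direction. HSPA5 differed by -0.63 ± 0.07 on the log2 scale (adjusted p = 1.45e-06) and SDF2L1 by -1.31 ± 0.29 (adjusted p = 0.00243). HCT116 was lower than LoVo in 5 of the 9 (HSPA5, DNAJB11, PDIA4, PDIA6 and CALR; 2.25% of all genes), with HSPA5 at -0.35 ± 0.07 (adjusted p = 0.00387). Between HCT116 and DLD1, only DNAJB11 was called (3.13% of all genes), with a difference of -0.42 ± 0.07 (adjusted p = 0.000552). All 9 differences were below 0, and 5 had an unadjusted p below 0.05. For HSPA5 the difference was -0.22, with a 95% interval from -0.37 to -0.07 and an adjusted p of 0.0688. DLD1 was lower than SW948 in 8 of the 9 (7.74% of all genes), all but DNAJB11, with the spread shared over the lines of the table. In its own fit, each of these lines had 0% of all genes called lower. The comparison of DLD1 with SW948 includes both libraries rich in short transcripts and was not refitted without them. In the separate fits of each line without them, SDF2L1 was at -0.34 in DLD1 and 0.02 in SW948. CRELD2 was then at -0.28 and 0.13, and MANF at -0.31 and 0.04. Between LoVo and SW948 edgeR called none of the 9 (0% of all genes lower), although 8 were lower in LoVo at an unadjusted p below 0.05. Between DLD1 and LoVo it also called none (0.133% of all genes lower), and none had an unadjusted p below 0.05. In the second table, HT29 was lower than SKCO1 in HSPA5 alone (-0.16 ± 0.04, adjusted p = 0.0404, with 1.68% of all genes called). There edgeR called none of the 9 between HT29 and SW1417 (1.45% of all genes lower, 1 member at an unadjusted p below 0.05) or between SKCO1 and SW1417 (0.447%, no member).

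Other genes of ER protein handling were read from lists by role. For the list counts in HCT116, the shares over all genes were 18.0% called lower and 19.0% called higher. Among 17 other ER folding genes in HCT116, 5 fell and 3 rose, with a median log2 fold change of -0.17. The 3 that rose were a share near that over all genes. PPIB, a prolyl isomerase of the ER, fell by 0.61 on the log2 scale and PDIA3, the isomerase that works with calreticulin, by 0.41. The ER oxidase gene ERO1B rose by 0.36 (adjusted p = 0.00625), and HSPA13 and FKBP14 rose by 0.34 and 0.30.

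Of 7 sensors and processing factors of the unfolded protein response, edgeR and DESeq2 each called none in HCT116, and none had an unadjusted p below 0.05. Their median log2 fold change was 0.12. ATF6 had a log2 fold change of 0.14 (adjusted p = 0.213), XBP1 0.12 (adjusted p = 0.126), ERN1 0.15 and EIF2AK3 0.09. The counts are per gene and do not tell the spliced form of XBP1 from the unspliced one. Of 11 genes of ER-associated degradation, which exports misfolded proteins for destruction, EDEM1 rose (0.47) and SYVN1 fell (-0.21). Of 12 genes of the translocon and KDEL retrieval, SEC61G (-0.39) and SPCS1 (-0.29) fell in HCT116. By edgeR, calls in the degradation and translocon lists were no more frequent than over all genes (18.0% lower, 19.0% higher). DESeq2 called 4 of the 12 translocon and retrieval genes lower, with 20.6% of all genes called lower.

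Genes listed for the PERK, ATF4 and CHOP branch went the opposite way to the chaperones in HCT116: 8 of 8 tested rose, with a median log2 fold change of 0.74. The name is that of the list. PERK activity was not measured, and which signal raised these genes was not tested. Over all genes, 19.0% were called higher there. ASNS, which makes asparagine and is a classic ATF4 target, rose from 126 ± 5 to 374 ± 11 CPM (mean ± SD, n = 4), a log2 fold change of 1.57 ± 0.05 (adjusted p = 1.29e-07). CHAC1, a glutathione-degrading enzyme, rose by 1.78 ± 0.13 (adjusted p = 1.51e-05). ATF4 itself rose by 0.37 (adjusted p = 0.000975) and DDIT3 by 0.46 (adjusted p = 0.0121). In DLD1, where 0.148% of all genes were called higher, 3 of the 8 rose. They included ATF3 (1.76, adjusted p = 0.000324) and PPP1R15A (0.87, adjusted p = 0.0115), while DLD1 ATF4 was at 0.26 (adjusted p = 0.286) and DDIT3 at 0.48 (adjusted p = 0.298).

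**Figure D5:**
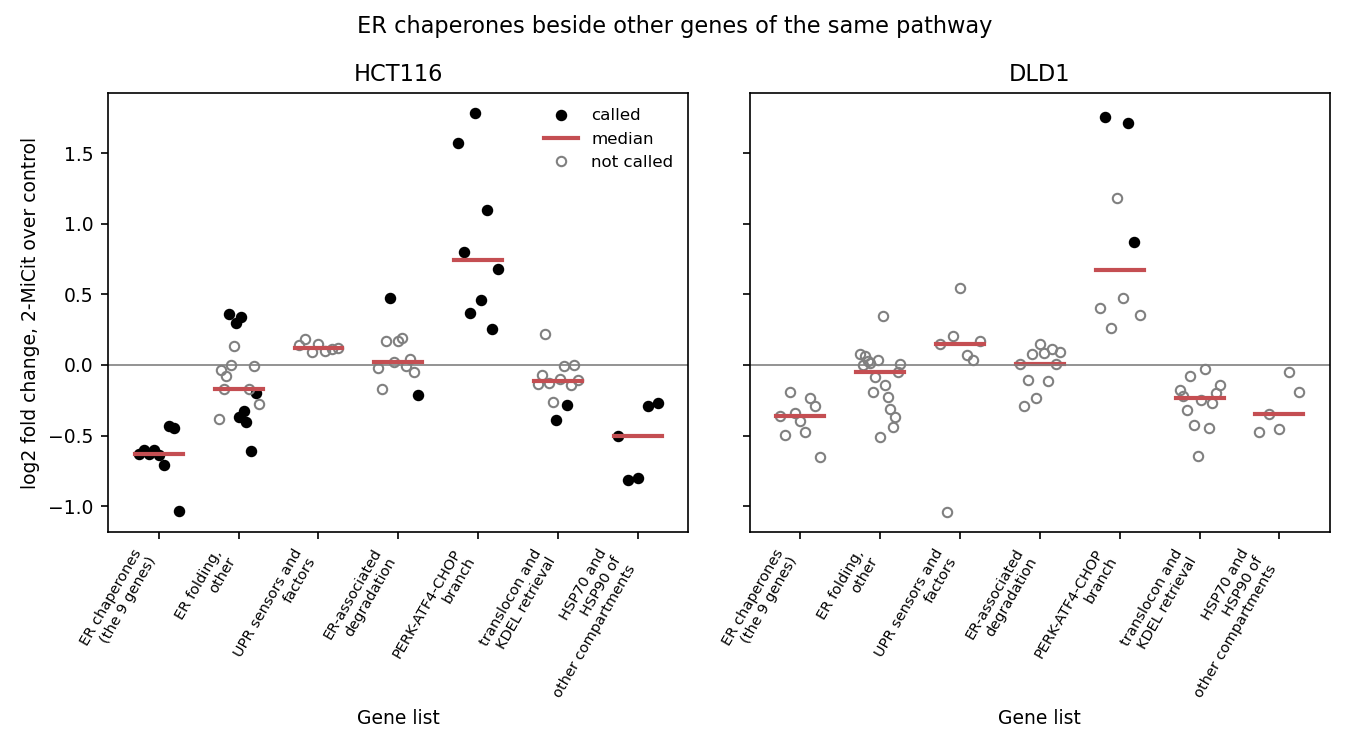
The log2 fold change, 2-MiCit over control, of each gene in HCT116 and DLD1 by list, filled where called, with the list median as a line. In HCT116 the ER chaperones have a median of -0.63 and the PERK-ATF4-CHOP branch 0.74, and the 7 sensors and factors lie close together above 0.

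The HSP70 and HSP90 genes of other compartments also moved with the ER chaperones in HCT116, where 18.0% of all genes were called lower. All 5 fell: HSP90AB1 by 0.82, HSPA8, the constitutive HSP70 of the cytosol, by 0.80, HSP90AA1 by 0.51, and the mitochondrial HSPA9 and TRAP1 by 0.29 and 0.27 on the log2 scale. In DLD1 HSPA8 was at -0.45 (adjusted p = 0.107). There edgeR called none of the 5, although 4 were lower at an unadjusted p below 0.05 and DESeq2 called 3. In SKCO1, where 1 ER chaperone and 10.8% of all genes were called lower, all 5 of these genes fell. The falls were 0.10 to 0.20 on the log2 scale, and HSP90AB1 had an adjusted p of 0.00036.

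Among the lines other than HCT116 and DLD1, SKCO1 had the most calls in the lists, with 2 of 61 genes higher and 14 lower. Over all SKCO1 genes, 8.10% were called higher and 10.8% lower, and the shares for the other lines are given above. In LoVo, ASNS fell by 0.29 (adjusted p = 0.0216) and no other listed gene was called. In SW948 edgeR and DESeq2 called none of 60 listed genes, of which 5 had an unadjusted p below 0.05. In HT29, HERPUD1, an ER-associated degradation gene, rose by 0.23 (adjusted p = 0.0062) and ERP29 fell by 0.14. In SKCO1, XBP1 rose by 0.08 and MBTPS1, the protease that first cuts ATF6, by 0.10 (adjusted p = 0.00653), and 5 of 12 translocon and retrieval genes fell, KDELR2 with the smallest adjusted p (0.0049). In SW1417, where 4.05% of all genes were called lower, 3 of the 8 genes listed for the PERK, ATF4 and CHOP branch fell. Among them, ASNS fell by 0.18 (adjusted p = 0.00502) and CHAC1 by 0.43 (adjusted p = 0.0211).

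The other genes that carry ERSE were read in the same way. Of 20 other genes with ERSE in a RefSeq promoter, 11 were tested in HCT116, with a median log2 fold change of -0.01, and 2 were lower and 3 higher. In that line 18.0% of all genes were called lower and 19.0% higher. The 5 chaperone genes with ERSE had a median of -0.60 there. ERO1B and XBP1, whose values are given above, are among those 11 genes. ALG12, a glycosylation enzyme of the ER, fell by 0.35 (adjusted p = 0.0167), and FICD, which modifies HSPA5, was at 0.23 (adjusted p = 0.129). Within the set, the 4 members without an exact ERSE in the window were SDF2L1 at -1.03, MANF at -0.71, DNAJB11 at -0.63 and PDIA4 at -0.43. Of these, SDF2L1 carries ERSE-II. Outside the set, 17 genes carry ERSE-II, and 12 of them were tested in HCT116. Their median log2 fold change was -0.07, with 3 lower and 1 higher.

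Genes with the most similar pattern were found by the root mean square difference between a gene's 7 log2 fold changes and the 7 medians of the set, among 7289 genes averaging at least 20 CPM in each table. The closest was DNAJA1, an HSP40 co-chaperone of the cytosol, at 0.046, with log2 fold changes of -0.53 in HCT116, -0.33 in DLD1, -0.24 in LoVo and 0.11 in SW948. SNRPG (0.054), PSMA5 (0.056), DDX55 (0.056), HNRNPM (0.062), EXOSC3 (0.062), ELOF1 (0.063) and PUSL1 (0.063) came next. By the same measure HSP90B1 lay at 0.026 and SDF2L1 at 0.221 from the medians to which they contribute, the closest and the farthest of the 9.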

How the data were processed

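The authors deposited raw counts per gene, which are whole numbers, in 2 tables. The submitters' processing notes name Salmon 1.5.0 and the build GRCh38.p13, along with Trimmomatic 0.39, DESeq2 and bcl2fastq 2.20.0. Salmon shares reads that match several transcripts, so genes with near-identical copies are uncertain. The authors also deposited normalized values, a signal on a linear scale, used here only to recover their scaling: a single factor per library in the first table, and factors that differ between genes in the second. Per the labels' protocols, total RNA was extracted with a GenElute kit and made into Illumina Stranded mRNA libraries. The growth protocol names HCT116, DLD-1, LoVo and SW948 only.

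Symbols, coordinates and lengths came from GENCODE release 29 (GRCh38), which left 1103 and 1126 identifiers of the 2 tables without a symbol. They stayed in the tests. Promoters came from RefSeq (GRCh38.p14). Each line was fitted alone in edgeR 4.0.16 (R 4.3.3) with filterByExpr, TMM scaling and the robust two-sided quasi-likelihood F test. Standard errors and 95% intervals come from the fit. Library totals ran from 13.8 to 45.4 M counts, and precision is given by the spread between libraries. The 84 pairs of libraries within groups all differed by more than sampling noise. Alternatives were DESeq2 1.42.0, its size factors, no filter or a stricter one (1 CPM in 4 libraries), 1 fit per table, a replicate block, removal of each library's length trend, the authors' scaling (chosen after seeing the data), and leaving out each library. The fits were tested on simulated data, with changed genes drawn from all genes tested in a line. Of 100 genes changed 1.5-fold up or down, 54% were recovered in HCT116, 26% in DLD1, 60% in LoVo and 43% in SW948. Recovery was 67% in HT29, 66% in SKCO1 and 80% in SW1417. A gene that was not called, above all in DLD1 or SW948, may thus have changed.

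The members and lists were chosen with earlier results of these data known. Named genes are all members, up to 2 called genes per list and line with the smallest adjusted p, fixed regulators (ATF6, XBP1, ERN1, EIF2AK3, ATF4, DDIT3, HSPA8) and the 8 genes of most similar pattern. ERO1B, HSPA13, FKBP14, EDEM1, SYVN1, ALG12, FICD and the remaining HSP70 and HSP90 genes were named after their values were seen.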

Additional observations from a re-analysis of the deposited data

Results flagged for a closer look

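Among 126 groups of 4 libraries (9 genes in 14 groups), 12 had a library set apart from the other 3 by more than Dixon's 95% limit, where chance flags about 1 in 20 groups. In DLD1 control replicate 1, SDF2L1 was at 155.0 CPM (others 73.1 to 84.0) and MANF at 246.4 CPM (others 160.7 to 174.7). In HT29 treated replicate 2, PDIA4 was at 462.2 CPM (others 383.7 to 392.5) and CALR at 509.1 CPM (others 401.5 to 409.9). HSPA5 was at 838.2 CPM in SW948 treated replicate 2 (others 717.9 to 736.2) and, as the lowest library, at 427.8 CPM in SW1417 treated replicate 2 (others 441.6 to 442.2). HSP90B1 was at 1282 CPM in HCT116 treated replicate 3 (others 1167 to 1183). DNAJB11 was at 148.2 CPM in HCT116 control replicate 1 (others 136.3 to 138.2) and at 68.3 CPM in SW948 control replicate 3 (others 62.4 to 63.0). MANF was at 64.9 CPM in LoVo treated replicate 3 (others 56.0 to 57.1), CRELD2 at 24.6 CPM in HT29 control replicate 2 (others 20.4 to 21.0), and PDIA6, as the lowest library, at 433.3 CPM in SKCO1 control replicate 1 (others 441.7 to 443.0).

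The response to 2-MiCit differed between HCT116, DLD1, LoVo and SW948 for all 9 genes by edgeR's interaction test. The adjusted p was 1.13e-05 for HSPA5, 3.85e-05 for DNAJB11, 0.000254 for CALR, 0.000278 for HSP90B1, 0.000592 for PDIA6, 0.000783 for PDIA4, 0.00666 for MANF, 0.0139 for SDF2L1 and 0.0163 for CRELD2.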

How the results depend on the processing

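In HCT116 all 9 members were called lower under each of the 17 alternatives. No member was called higher in any line under any of them, no fold change that was called reversed, and the median of the set kept its direction in every line (-0.67 to -0.60 in HCT116, -0.41 to -0.26 in DLD1, -0.29 to -0.15 in LoVo, 0.00 to 0.13 in SW948, -0.16 to -0.07 in HT29, -0.05 to -0.02 in SKCO1 and -0.09 to -0.05 in SW1417). Counts of members called lower did depend on the processing elsewhere, and the cause was not tested. In DLD1 (main count 0) they were 5 with DESeq2, 9 in 1 fit over the table, 1 with the length trend removed and 0 to 1 without a library. In LoVo (2) they were 6 with DESeq2, 6 with the replicate block and length trend removed together, and 0 to 5 without a library. In HT29 (1) they were 2 with DESeq2, 2 with its size factors, 3 in 1 fit, 3 with the replicate block, 3 with block and length trend, 2 with the length trend removed, and 0 to 3 without a library. In SKCO1 (1) they were 0 in 1 fit and 0 with the authors' scaling. In SW1417 (1) they were 2 with DESeq2, 0 without a filter, 2 with the stricter filter, 2 with block and length trend, 2 with the length trend removed, 0 with the authors' scaling, and 0 to 2 without a library. The SW1417 count stayed at 1 with the replicate block, but HSP90B1 lost its call there (adjusted p = 0.0547). The interaction in the table of HCT116, DLD1, LoVo and SW948 (9) was called for 8 members with the replicate block, and that in the table of HT29, SKCO1 and SW1417 (0) was called for 1 member with the stricter filter and 2 with the replicate block. The interaction fits were not repeated with a library left out.

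Counts over all genes moved too. Genes called lower numbered 0 in DLD1, 164 with DESeq2, 619 in 1 fit and 12 with the length trend removed. In LoVo they numbered 96, 490 with DESeq2, 360 with the length trend removed and 59 with the authors' scaling. In HT29, SKCO1 and SW1417 they numbered 419, 1589 and 570, against 1270, 1010 and 227 in 1 fit and 181, 767 and 133 with the authors' scaling. With the replicate block and length trend removed, HCT116 went from 2489 to 3740. The labels do not say whether replicate numbers pair the libraries. Correlations of same-numbered libraries ran from 0.08 to 0.28 in HCT116, where each control library was closest to its own number, a hint of pairing from the data. In HT29 they ran from 0.03 to 0.10, with 3 control libraries closest to their own number. Over all lines other than HCT116 they ran from -0.32 to 0.19. With the replicate block, genes called lower went from 2489 to 3348 in HCT116 and from 419 to 1034 in HT29.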
